A study of Mus musculus with 6 samples.

Results

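The lysosome and proton pump genes are 35 genes of the mouse macrophage transcriptome, picked by gene symbol from the 15415 genes of the deposited table. The list covers 11 lysosomal hydrolases and their activators, 6 lysosomal membrane proteins, 3 regulators of the TFEB family, and 15 subunits or accessory proteins of the V-ATPase, the proton pump of the lysosome. The cathepsins are not on the list. All 35 genes were listed and reached the filter on low values, a mean of at least 1 FPKM (reads scaled to gene length and to library size) in 1 group, as did 9030 genes in all.

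RNA was sequenced from peritoneal macrophages (PEMs), cells washed from the mouse peritoneal cavity, in 3 libraries titled as knockout and 3 titled as control. The knockout genotype was LysM-Cre; Tim-4 fl/fl, in which Cre made from the Lyz2 locus deletes floxed Tim-4 in myeloid cells, macrophages and neutrophils included. The controls were Tim-4 fl/fl, so both groups carried the floxed allele and the controls carried no Cre. Every library is labelled as treated with LPS, the bacterial lipopolysaccharide. The study's methods describe male mice of 6 to 8 weeks on a C57BL/6J background, PEMs collected 3 days after an injection of starch, and activation with LPS at 1 μg/ml for 3.5 h, but do not say that the sequenced cells were those so activated. The genotype entry of the labels has the groups the opposite way from the titles, and the libraries were grouped by title.

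Lysosomes are acidic organelles in which macrophages digest what they engulf. Hydrolases cleave sugars, lipids and proteins there, heavily glycosylated membrane proteins line the inner face, and the V-ATPase keeps the lumen acidic: its V1 sector hydrolyses ATP in the cytosol and its V0 sector carries protons across the membrane. TFEB, TFE3, MITF and TFEC, the MiT family, bind the CLEAR element found near many lysosomal genes. Tim-4, encoded by Timd4, is a macrophage receptor for phosphatidylserine, the lipid exposed by dying cells.

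Between 36170767 and 42217558 reads were counted per library. Timd4 stood at 0.333, 0.394 and 0.246 FPKM in knockout libraries 1, 2 and 3 and at 19.5, 12.0 and 1.19 FPKM in control libraries 1, 2 and 3, so every control library was above every knockout library and control library 3 came closest to them (log2 fold change -2.66, limma adjusted p = 0.0715, and 0.0436 with the replicate number as a block). Lyz2, the lysozyme gene that carries the Cre, stood at 41.4, 4656 and 106 FPKM in knockout libraries 1, 2 and 3 and between 7090 and 8482 FPKM in the controls, so knockout library 2 stood apart from the other two.

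All 10 macrophage markers were detected, with 1 of them higher past the threshold and none lower, although 7 had a negative log2 fold change and in 4 all knockout libraries lay below all controls. Without Lyz2, the other 9 summed to 1899 to 2411 FPKM in the knockout and to 2546 to 2777 FPKM in the control, and with it to 2065 to 6555 against 9763 to 11028 FPKM. Markers of other cells also differed between the groups. Of the tested markers, 5 of 8 for large peritoneal macrophages, 5 of 6 for B cells, 5 of 6 for mast cells, 2 of 5 for neutrophils and 1 of 2 for T cells were lower past the threshold in the knockout. Timd4 itself is on the large peritoneal macrophage list and was tested but not past the threshold. The summed level of the large peritoneal macrophage list was 18.0 to 37.4 FPKM in the knockout and 108 to 415 FPKM in the control, that of the B cell list 11.0 to 11.9 against 33.0 to 125 FPKM, that of the mast cell list 9.42 to 16.9 against 46.8 to 54.2 FPKM, that of the neutrophil list 79.7 to 105 against 185 to 213 FPKM, and that of the T cell list 1.19 to 1.89 against 2.81 to 11.1 FPKM. The list for monocyte-derived macrophages summed to 714 to 1539 against 1164 to 3125 FPKM, with 1 of 7 tested markers higher and 1 lower, and the list for mesothelial cells and fibroblasts to 12.1 to 34.4 against 2.13 to 13.1 FPKM, with 0 of 4 past the threshold and 2 of 4 higher past it with the replicate block. Eosinophil markers did not reach the filter and summed to at most 1.25 FPKM. No marker with deposited values was at 0 in all 3 knockout libraries. Values were absent for 1 B cell, 1 T cell, 3 neutrophil and 2 eosinophil markers of these lists. The part of these cells in the values that follow was not tested, and in bulk RNA fewer cells of a type and less RNA per cell cannot be told apart. The labels do not say that the libraries came from separate mice or cultures, so p-values measure only the spread between these libraries.

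The core letters of the CLEAR element were searched in the promoters of the members, because the list holds 3 of the regulators that bind this element. The windows ran from 250 bases before to 50 bases after each RefSeq transcription start of GRCm38.p6, a build other than the mm9 that the submitters' processing notes name for these data. The motifs were CACGTG and the longer TCACGTGA, which contains it, and each reads the same on both strands. Of the 35 members, 30 had a window, in 38 windows in all, and Atp6v0d2, Atp6v1b2, Atp6v1c1, Atp6v1g1 and Atp6v1h had none. CACGTG was in 8 of the 38 windows (21.1%) against 2349 of the 32851 windows of all genes (7.15%). TCACGTGA was in 4 of the 38 (10.5%) against 320 of all (0.974%). The 4 genes with the longer motif were Mcoln1, Atp6v0d1, Atp6v1a and Gla, and CACGTG alone was in the windows of Lamp1, Atp6v0b, Glb1 and Gaa. The stretches around the longer motif are shown 5′ to 3′ on the strand of the gene, with the motif in capitals, because they show how the same 8 letters sit in otherwise unlike promoters. They lie at chr8:3500453-3500500 on the plus strand for Mcoln1, at chr8:105566041-105566088 on the minus strand for Atp6v0d1, at chr16:44139364-44139411 on the minus strand for Atp6v1a, and at chrX:134601173-134601253 on the minus strand for Gla.
Mcoln1: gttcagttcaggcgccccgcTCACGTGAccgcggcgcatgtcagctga
Atp6v0d1: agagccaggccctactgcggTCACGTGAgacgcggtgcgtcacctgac
Atp6v1a: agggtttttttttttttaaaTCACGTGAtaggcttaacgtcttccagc
Gla: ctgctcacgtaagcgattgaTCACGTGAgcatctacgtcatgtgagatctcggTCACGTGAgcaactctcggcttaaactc
The motif began 46 bases before the start in Mcoln1, 4 bases before it in Atp6v0d1 and 132 bases before it in Atp6v1a, and Gla had it at 228 and at 195 bases before the start. A match is a description of these letters and not a site shown to be bound.

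In the comparison of knockout with control PEMs, 3 of the 35 genes were higher past the threshold and none was lower. They were Atp6v0d2, a V0 subunit, Gusb, the hydrolase β-glucuronidase, and Psap, the precursor of the saposins that help hydrolases reach their lipids. The test was limma on log2(FPKM + 1), adjusted over all genes by the Benjamini-Hochberg method with a threshold of 0.05, and fold changes are on that log2 scale, knockout minus control. The 3 genes are 8.57% of the members. Over all 9030 genes tested, 232 (2.57%) were higher and 428 (4.74%) were lower past the threshold. At an unadjusted p below 0.05 there were 15 of the 35 members (42.9%) and 2494 of the 9030 genes (27.6%).

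The log2 fold change was positive in 24 members (68.6%) and in 3297 of all genes (36.5%), and its median was 0.24 over the members and -0.11 over all genes. In 13 members all knockout libraries lay above all controls (37.1%), which held for 11.1% of all genes. These were Hexa, Gla, Gusb, Psap, Tpp1, Ppt1, Lamp1, Cd63, Cd68, Scarb2, Atp6v0d2, Atp6v1b2 and Atp6v1f. In 4 members, Gaa, Mitf, Atp6v0d1 and Atp6v1h, all knockout libraries lay below all controls (11.4%), which held for 23.0% of all genes. The groups overlapped in the other 18 members. These counts describe the list, and no test of the list as a whole was made.

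The scaling between libraries shifted the median of all genes by over 0.1. After the FPKM values were rescaled by the median of ratios, the median log2 fold change was 0.02 over all 9005 genes tested and 0.39 over the 34 members that passed the filter, Tfeb falling below it. Then 6 members were higher past the threshold and none lower, Hexa, Lamp1 and Atp6v1b2 joining the 3 named above, against 342 genes higher (3.8%) and 320 genes lower (3.55%) in all. After rescaling, 18 members had all knockout libraries above all controls, as 17.4% of all genes did, and 3 members had all of them below, as 15.5% of all genes did. With the replicate number as a block, 2 members were higher past the threshold, Gusb and Atp6v0d2, where 352 of all genes were (3.9%). With the block and the rescaling together there were 4, Hexa, Gusb, Psap and Atp6v0d2, where 506 of all genes were (5.62%).

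The counts also moved with single libraries. Without knockout library 1 or without knockout library 2, 1 member was past the threshold (Atp6v0d2), and over all genes there were only 30 (0.33%) and 63 (0.699%), in that order. Without control library 2 no member was past it, and 8 of all genes were (0.0888%). Without control library 3 there were 8 members, of which 7 were higher and Gaa was lower, and 1333 of all genes (14.8%). Without control library 1, Gusb and Atp6v0d2 were higher and Mitf was lower past the threshold, as were 788 of all genes in either direction (8.68%). With single libraries left out, the member counts thus rose and fell with the number of calls over all genes, which was not so for the block or the rescaling.

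**Figure D1:**
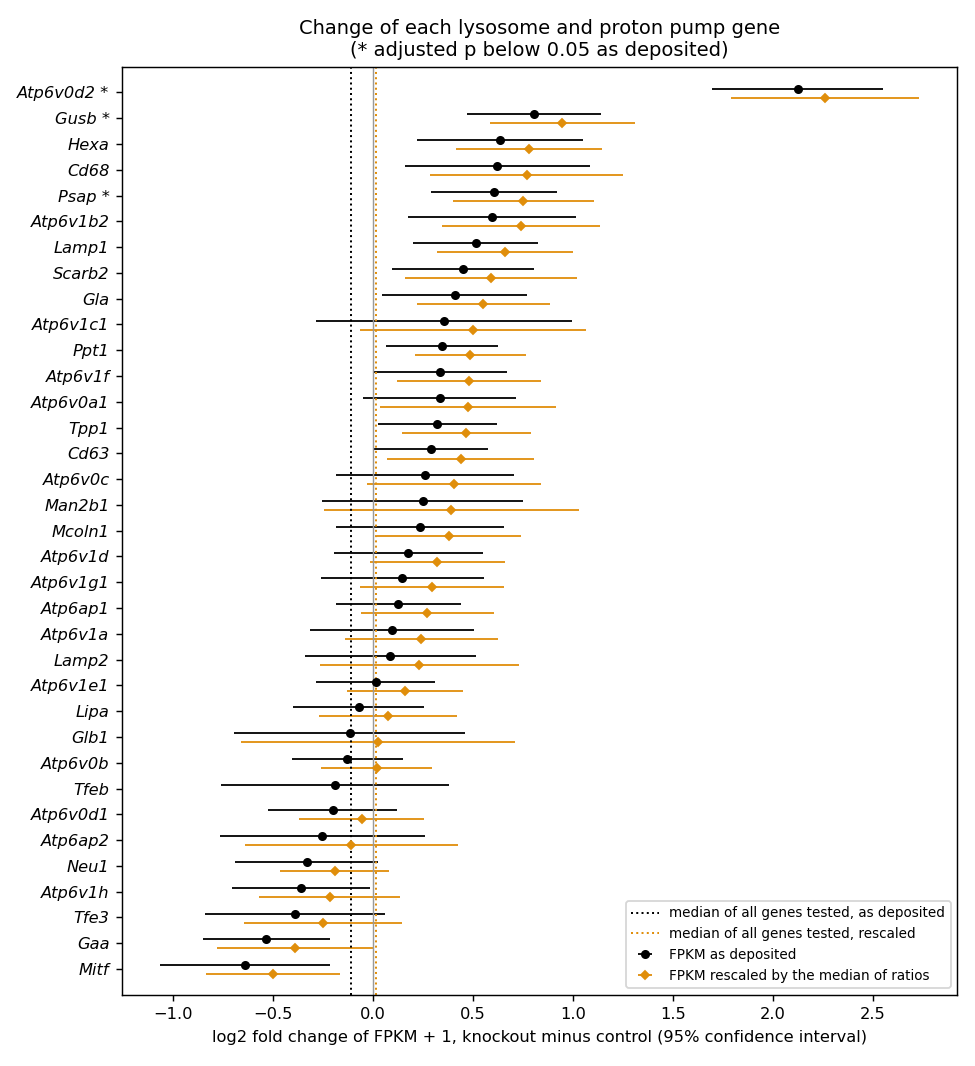
Log2 fold change of FPKM + 1, knockout minus control, for the 35 genes in order of size, with 95% confidence intervals from limma over 3 libraries a group. Black circles are the FPKM as deposited and orange diamonds the FPKM rescaled by the median of ratios, the dotted lines mark the medians of all genes tested (-0.11 and 0.02), and Atp6v0d2 stands apart at 2.12.

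Among the 11 hydrolases and activators, 2 rose past the threshold, none fell, 7 had a positive and 4 a negative log2 fold change, and the median was 0.32. Gusb, which cleaves glucuronic acid from glycosaminoglycans (Entrez gene 110006), stood at 39.4, 52.6 and 41.9 FPKM in knockout libraries 1, 2 and 3 and at 24.7, 24.9 and 25.2 FPKM in control libraries 1, 2 and 3. All knockout libraries were above all controls, and the controls lay close together. The means were 44.6 ± 7.01 and 24.9 ± 0.224 FPKM (SD, n = 3), a log2 fold change of 0.80 (SE 0.14, limma adjusted p = 0.023). Without knockout library 1, knockout library 2 or control library 2 the limma adjusted p was 0.0793, 0.108 and 0.103, in that order.

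Psap (Entrez gene 19156) was the most abundant of the 35 genes and ranked 5 of all genes by mean FPKM. It stood at 5981, 6415 and 5988 FPKM in the knockout and at 4109, 3574 and 4444 FPKM in the controls, and the groups did not overlap. The means were 6128 ± 249 and 4042 ± 439 FPKM (SD, n = 3), a log2 fold change of 0.61 (SE 0.13, limma adjusted p = 0.0407). The call rested on every library but control library 3: without knockout libraries 1, 2 and 3 the limma adjusted p was 0.149, 0.18 and 0.0765, without control libraries 1 and 2 it was 0.0585 and 0.127, and without control library 3 it was 0.0262. It was 0.0606 with the block and 0.203 with no filter on low values.

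Gaa, the acid α-glucosidase that degrades glycogen, had the lowest log2 fold change of the hydrolases, -0.53 (limma adjusted p = 0.0578). Its values were 37.5, 37.7 and 39.8 FPKM in the knockout and 64.7, 50.6 and 53.4 FPKM in the control, so every knockout library was below every control. The limma adjusted p was 0.0443 without control library 3, and 0.185 after rescaling. Gaa thus went the other way from Gusb and Psap in every library, although it did not pass the threshold with all 6.

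Hexa, the α subunit of β-hexosaminidase, is given because it passed after rescaling, a choice made after the values were seen. It stood at 290, 307 and 289 FPKM in the knockout and at 157, 179 and 243 FPKM in the control, with no overlap, and control library 3 was the nearest to the knockout. Its log2 fold change was 0.63 (limma adjusted p = 0.0712), and 0.78 after rescaling (limma adjusted p = 0.0335). The 3 further hydrolases without overlap, each higher in every knockout library, were Gla (α-galactosidase A, log2 fold change 0.41), Ppt1 (palmitoyl-protein thioesterase, 0.35) and Tpp1 (tripeptidyl peptidase, 0.32), with limma adjusted p between 0.119 and 0.155. In the other 4 the groups overlapped: the log2 fold change was 0.25 for Man2b1 (an α-mannosidase), -0.07 for Lipa (acid lipase), -0.12 for Glb1 (β-galactosidase) and -0.33 for Neu1 (a sialidase). After rescaling, Lipa was at 0.07 and Glb1 at 0.03, so the sign of these small values depended on the scaling.

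**Figure D2:**
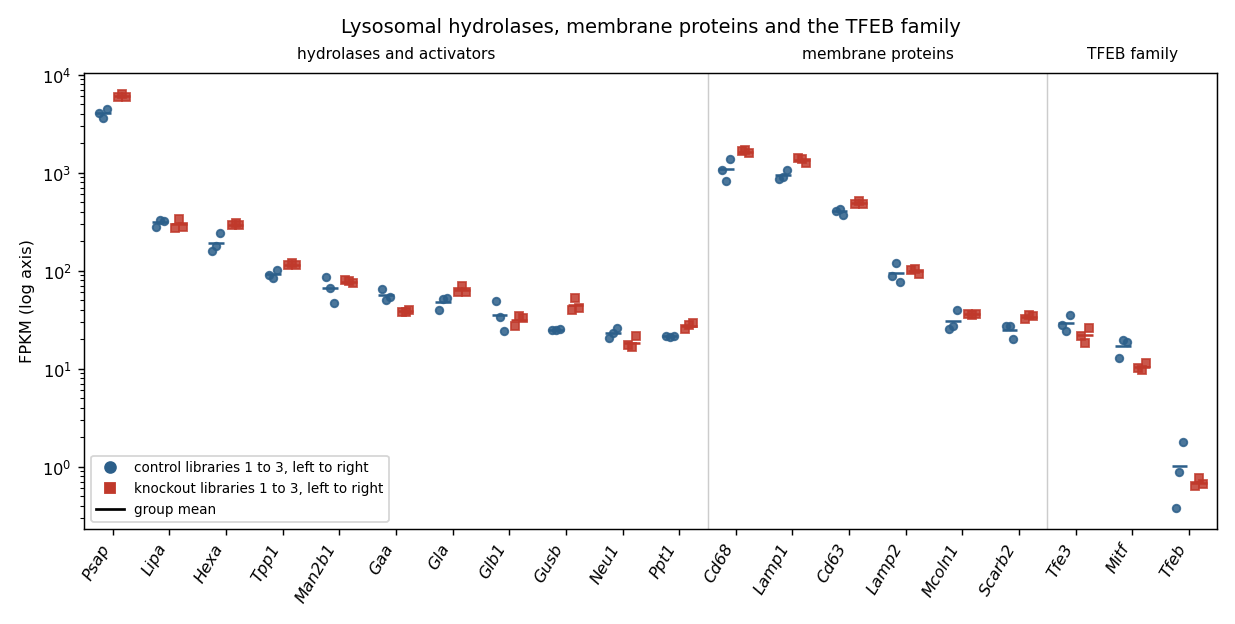
FPKM on a log axis of the 20 lysosomal and TFEB family genes in each library, with blue circles for control libraries 1 to 3, red squares for knockout libraries 1 to 3, and bars for the group means. Psap is highest at 3574 to 6415 FPKM, and Tfeb is lowest at 0.376 to 1.77 FPKM.

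All 6 membrane proteins had a positive log2 fold change as deposited and after rescaling, none passed the threshold as deposited, and the median was 0.37. Cd68, the macrophage member of the LAMP family and the most abundant of the 6, had the highest value. It stood at 1668, 1685 and 1572 FPKM in the knockout and at 1077, 816 and 1379 FPKM in the control. The groups did not overlap, but the controls spread widely, and the log2 fold change was 0.62 (SE 0.20, limma adjusted p = 0.0989, and 0.0212 without control library 3).

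Lamp1, a main glycoprotein of the lysosomal membrane, is also given because it passed after rescaling. Its values were 1401, 1366 and 1247 FPKM in the knockout and 857, 907 and 1055 FPKM in the control, with no overlap. The log2 fold change was 0.51 (SE 0.13, limma adjusted p = 0.0617), and 0.66 after rescaling (limma adjusted p = 0.0417). Without control library 3 the limma adjusted p was 0.0281.

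Lamp2, the partner of Lamp1 that also serves chaperone-mediated autophagy, had the lowest value of the 6. It stood at 100, 103 and 93.4 FPKM in the knockout and at 88.1, 120 and 75.9 FPKM in the control, the controls lying on either side. The log2 fold change was 0.09 (95% confidence interval -0.34 to 0.52) and was -0.06 without control library 3. The membrane proteins between these were Scarb2, the receptor that carries glucocerebrosidase to the lysosome (0.45), the tetraspanin Cd63 (0.29), both without overlap, and the calcium channel Mcoln1 (0.24), whose highest value was in control library 3.

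The 3 regulators of the TFEB family all had negative log2 fold changes, with a median of -0.39, and none passed the threshold as deposited. After rescaling, Mitf and Tfe3 were still negative and Tfeb fell below the filter. Mitf (Entrez gene 17342) stood at 10.1, 9.67 and 11.4 FPKM in the knockout and at 12.7, 19.4 and 18.8 FPKM in the control. Every knockout library was below every control, with a log2 fold change of -0.64 (SE 0.18, limma adjusted p = 0.0754), and of -0.82 (limma adjusted p = 0.0301) without control library 1.

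Tfe3 (Entrez gene 209446) stood at 21.3, 18.2 and 26.2 FPKM in the knockout and at 27.6, 24.1 and 35.4 FPKM in the control. The groups overlapped, since knockout library 3 was above control library 2, and the log2 fold change was -0.39 (limma adjusted p = 0.234). Tfeb (Entrez gene 21425) was the least abundant of the 35 genes, with 0.637, 0.766 and 0.657 FPKM in the knockout and 0.376, 0.871 and 1.77 FPKM in the control. It rested on 112 to 483 reads a library, the controls lay on both sides of the knockout, and the log2 fold change was -0.19 (95% confidence interval -0.76 to 0.38).

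Among the 7 V0 and accessory subunits, 1 rose past the threshold, none fell, 4 had a positive and 3 a negative log2 fold change, and the median was 0.13. The gene that rose was Atp6v0d2 (Entrez gene 242341), an isoform of subunit d that is abundant in osteoclasts and some macrophages and sits where V0 meets V1. It stood at 45.9, 66.0 and 42.3 FPKM in the knockout and at 10.4, 11.3 and 10.8 FPKM in the control. No other of the 35 genes was as far apart between the groups, and the lowest knockout library was well above the highest control. The means were 51.4 ± 12.8 and 10.8 ± 0.446 FPKM (SD, n = 3), a ratio of 4.75, and the log2 fold change was 2.12 (SE 0.18, 95% confidence interval 1.70 to 2.55, limma adjusted p = 0.0049). The limma adjusted p was 0.011 with the block and 0.0056 after rescaling, and it lay between 0.0018 and 0.0549 with each library left out in turn, the highest being without control library 2.

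The other isoform of subunit d, Atp6v0d1, which most cells use, stood at 136, 120 and 138 FPKM in the knockout and at 142, 140 and 173 FPKM in the control. Every knockout library was below every control by a small margin, and the log2 fold change was -0.20 (limma adjusted p = 0.371). The 2 isoforms of subunit d therefore had log2 fold changes of opposite sign, also after rescaling, where Atp6v0d1 was at -0.06.

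The lowest value of this group was that of Atp6ap2, the accessory protein also known as the prorenin receptor, with a log2 fold change of -0.25 (95% confidence interval -0.77 to 0.26). It stood at 107, 109 and 108 FPKM in the knockout and at 107, 184 and 108 FPKM in the control, so that control library 2 alone differed, and without it the log2 fold change was 0.0016. Atp6v0c, which forms the proton-carrying ring, was the most abundant of the group at 291, 345 and 365 FPKM in the knockout and 290, 218 and 338 FPKM in the control. These groups overlapped, with a log2 fold change of 0.26 (limma adjusted p = 0.407). The accessory subunit Atp6ap1 (0.13) and the ring subunit Atp6v0b (-0.13, and 0.02 after rescaling) overlapped as well.

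None of the 8 V1 subunits passed the threshold, 7 had a positive and 1 a negative log2 fold change, and the median was 0.16. The highest was Atp6v1b2, the B subunit that forms the ATP-hydrolysing head with Atp6v1a. It stood at 220, 241 and 200 FPKM in the knockout and at 121, 139 and 183 FPKM in the control, with no overlap and control library 3 the nearest. The log2 fold change was 0.59 (SE 0.18, limma adjusted p = 0.0876), and 0.74 after rescaling (limma adjusted p = 0.0457), and the limma adjusted p was 0.0167 without control library 3.

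The lowest was Atp6v1h, the regulatory H subunit that joins V1 to V0, at 50.7, 50.3 and 49.1 FPKM in the knockout and 56.0, 76.9 and 62.3 FPKM in the control. Every knockout library was below every control, with a log2 fold change of -0.36 (SE 0.15, limma adjusted p = 0.165). Atp6v1e1, a stalk subunit and the most abundant of V1, stood at 409, 400 and 413 FPKM in the knockout and at 359, 419 and 437 FPKM in the control, with a log2 fold change of 0.01 (95% confidence interval -0.28 to 0.31). The remaining 5 were Atp6v1c1 (0.36), Atp6v1f (0.33), Atp6v1d (0.18), Atp6v1g1 (0.15) and Atp6v1a (0.10), and of these Atp6v1f alone had no overlap.

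**Figure D3:**
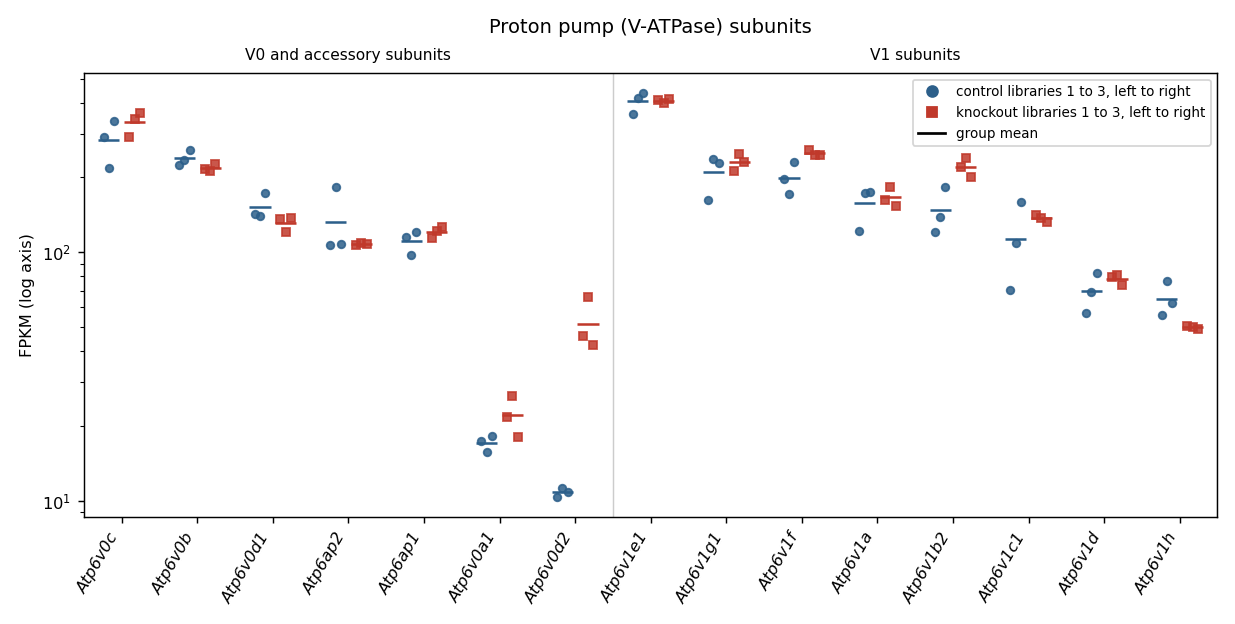
FPKM on a log axis of the 15 V-ATPase genes in each library, with blue circles for control libraries 1 to 3, red squares for knockout libraries 1 to 3, and bars for the group means. Atp6v0d2 moves from 10.4 to 11.3 FPKM in the control up to 42.3 to 66.0 FPKM in the knockout, while 10 of the 15 genes overlap between the groups.

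FPKM values are per gene length, so isoforms can be set against each other within a library, and such a share does not depend on the scaling between libraries. In all, 6 shares were compared with two-sided exact permutation tests, which take no account of the replicate numbers and cannot go below 0.1 for 3 libraries against 3. Atp6v0d2 made up 25.2%, 35.4% and 23.5% of the summed FPKM of both subunit d genes in the knockout libraries and 6.78%, 7.42% and 5.90% in the controls. The means were 28.0 ± 6.46% and 6.70 ± 0.766% (SD, n = 3), a difference of 21.3 percentage points in which the groups did not overlap (exact permutation p = 0.1, 0.2 after adjustment over the shares).

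For subunit a, the membrane subunit of the proton path, the share of Atp6v0a1 was 7.78%, 10.1% and 7.42% in the knockout and 8.05%, 8.67% and 7.92% in the control (exact permutation p = 1). Atp6v0a1 itself stood at 21.7, 26.5 and 18.1 FPKM in the knockout and at 17.4, 15.8 and 18.3 FPKM in the control. Tcirg1, the a3 isoform of osteoclasts and macrophages, made up most of subunit a in every library, with 249, 228 and 218 FPKM in the knockout and 192, 158 and 205 FPKM in the control (log2 fold change 0.33, limma adjusted p = 0.184). The a2 isoform Atp6v0a2 lay between 6.90 and 7.88 FPKM in all 6 libraries.

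The MiT family also includes Tfec, which is expressed mainly in macrophages and is not among the 35 genes. Tfec stood at 13.5, 9.91 and 10.8 FPKM in the knockout and at 32.3, 31.1 and 26.7 FPKM in the control, with a log2 fold change of -1.33 (SE 0.15, limma adjusted p = 0.0096), and every knockout library was below every control. It made up 29.6%, 25.7% and 22.1% of the family in the knockout and 44.3%, 41.2% and 32.3% in the control (difference -13.4 percentage points). Tfe3 made up 46.8%, 47.2% and 53.3% against 37.8%, 31.9% and 42.8% (difference 11.6 points). The log2 fold change of Tfe3 itself was negative (-0.39), and shares of the same sum do not move independently. The shares of Tfec and Tfe3 did not overlap between the groups (exact permutation p = 0.1 for each, 0.2 after adjustment). The share of Mitf was 22.2%, 25.1% and 23.2% in the knockout and 17.4%, 25.7% and 22.8% in the control (exact permutation p = 0.8), and that of Tfeb was at most 2.14% in any library (exact permutation p = 0.5). The 4 genes together summed to 45.6, 38.5 and 49.1 FPKM in the knockout and to 73.0, 75.5 and 82.6 FPKM in the control.

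**Figure D4:**
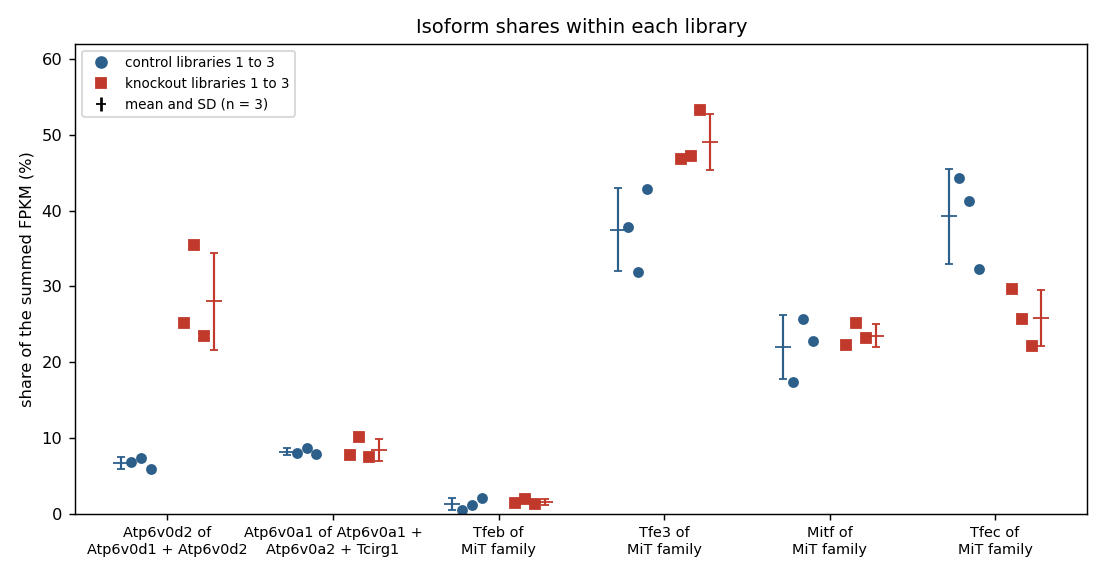
Share of the summed FPKM (%) held by an isoform within each library, with blue circles for control, red squares for knockout, and the mean with SD (n = 3) beside each group. The share of Atp6v0d2 in subunit d is 23.5% to 35.4% in the knockout and 5.90% to 7.42% in the control, and Tfec takes less and Tfe3 more of the MiT family in every knockout library.

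Summed over all 35 genes, the level was 13162, 13850 and 12993 FPKM in the knockout libraries and 9524, 9101 and 10946 FPKM in the controls, a ratio of 1.35 between the means. In reads the genes took 3.12% to 3.35% of each knockout library and 2.22% to 2.58% of each control library. Psap weighs most in this sum, and without it the ratio was 1.24. By role the ratio of sums was 1.45 for hydrolases and activators, 1.41 for membrane proteins, 1.13 for V1, 1.04 for V0 and accessory subunits, and 0.701 for the TFEB family. A few genes carried much of these ratios, and without Psap that of the hydrolases was 1.16. Without Cd68 and Lamp1 the membrane proteins summed to 643 to 688 FPKM in the knockout and 505 to 603 FPKM in the control, and without Atp6v0d2 the V0 and accessory subunits summed to 886 to 983 against 890 to 1015 FPKM, which overlapped.

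The members varied less among the knockout libraries than among the controls. The median SD of log2(FPKM + 1) was 0.0731 in the knockout and 0.230 in the control, and it was larger in the control in 29 of the 35 genes (82.9%), against 0.136 and 0.227 and 73.6% over all genes tested. With the FPKM as deposited, control library 3 was the highest control in 22 of the 35 members, control library 2 in 8 and control library 1 in 5. The median-of-ratios factors of control libraries 1, 2 and 3 were 0.963, 1.06 and 1.14, so library 3 also stood highest of the controls over genes in general. The same count was not made over all genes or after rescaling. In 11 members the log2 fold change as deposited was positive and the groups overlapped, and control library 3 reached into the knockout range in 9 of these. Control library 3 alone did so for Mcoln1, Atp6v0a1, Atp6v0c, Atp6v1c1 and Atp6v1d. These overlaps depend on the scaling: after rescaling, 18 rather than 13 members had all knockout libraries above all controls. Control library 3 also had the lowest Timd4 level among the controls. It had the lowest summed levels there of the B cell list and of the large peritoneal macrophage list, which includes Timd4. The part of these differences in the members' values was not tested.

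Further lysosomal genes were taken from lists of hydrolases, membrane and lumenal proteins, other V-ATPase subunits and assembly factors, regulators around TFEB, and autophagy. Of 30 other hydrolases tested, 4 rose and 1 fell, with a median log2 fold change of 0.31. Those that rose were Acp5, the tartrate-resistant acid phosphatase (1.12), the sulfatases Galns (1.11) and Arsb (1.04), and Gm2a, the activator that presents gangliosides to β-hexosaminidase (0.95). The one that fell was the ribonuclease Rnaset2b (-1.27), whose reads may be shared with its near-identical copy Rnaset2a. Of 31 other membrane and lumenal proteins, 4 rose and none fell, with a median of 0.20: Mfsd12, a cysteine transporter (1.76), the cation channels Tpcn2 (1.13) and Tpcn1 (0.53), and the cholesterol carrier Npc2 (0.64).

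Acp5 illustrates the size of these changes, at 146, 140 and 156 FPKM in the knockout and 63.0, 57.9 and 82.4 FPKM in the control (limma adjusted p = 0.0132). Mfsd12 stood at 39.9, 48.3 and 39.5 FPKM in the knockout and at 6.49, 11.9 and 20.9 FPKM in the control (limma adjusted p = 0.0326). The groups did not overlap in either gene.

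In the remaining lists, none of the 13 other V-ATPase genes tested and none of the 49 autophagy genes passed the threshold, with medians of -0.10 and -0.16. In these lists 1 (7.69%) and 5 genes (10.2%) had an unadjusted p below 0.05, in that order, against 27.6% of all genes. With shares of 2.57% higher and 4.74% lower over all genes, a list of 13 genes would hold few calls at that rate, and no difference between lists was tested. Of 24 genes around TFEB, Tfec fell and none rose, with a median of -0.05. With the replicate block, Tpcn2 (limma adjusted p = 0.0527) and Tpcn1 (limma adjusted p = 0.0604) were no longer past the threshold, so 2 of the membrane and lumenal proteins were higher. With it, Galc was also higher (limma adjusted p = 0.0422) and Hgsnat lower (limma adjusted p = 0.034) among the hydrolases, which then had 5 higher and 2 lower, and Rb1cc1 was lower among the autophagy genes (limma adjusted p = 0.0438). Galc cleaves galactosylceramide, Hgsnat acetylates heparan sulfate for its breakdown, and Rb1cc1 is part of the complex that starts autophagy. In all, without the block, 8 genes of these lists rose and 2 fell out of 147 tested, and the limma count of 10 became 11 with the block, 2 without knockout library 1, 1 without knockout library 2, 0 without control library 2 and 21 without control library 3.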

How the data were processed

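RNA of PEMs was sequenced in 6 libraries, 3 for each group. The authors deposited FPKM values per gene and library, and the genome build in the submitters' processing notes is mm9. The aligner, the counting and the annotation are not given in the sources used here. The deposited signal columns hold, by their names, group means of reads scaled by size factors. They served only to recover whole reads from the FPKM, which came out whole for 100% of values in every library (tolerance 0.02 reads). Columns of fold changes, p-values and q-values hold the authors' own comparison and were not used.

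The comparison used limma 3.58.1 in R 4.3.3 (lmFit, then eBayes with trend) on log2(FPKM + 1), restricted to 9030 genes whose mean reached 1 FPKM in a group. P-values were adjusted over all of them by the Benjamini-Hochberg method. This pseudocount understates the change of low genes. The members and all gene lists were chosen with earlier results of these data known. Values per library are given for members past the threshold, the TFEB family, the highest, lowest and most abundant gene of each role and the genes of the shares. The fit was tested on simulated reads with 200 genes changed 4-fold and equal spread in both groups. That setting is unlike these data, where the controls varied more, and it does not test smaller changes.

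For the replicate numbers 1, 2 and 3, the 2 libraries that share a number deviated from their group means with correlations of 0.109, 0.11 and 0.304. Libraries of different numbers correlated between -0.332 and 0.291, and the highest of these, knockout library 2 with control library 1, exceeded 2 of the 3 above. Each same-number correlation is above 0.1, which is a weak basis for pairing the libraries. The main fit did not use the numbers, so its p-values ignore any pairing, and a fit with the number as a block was run beside it. No source says what the numbers share, so any pairing rests on these correlations.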

Additional observations from a re-analysis of the deposited data

How the results depend on the processing

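Each group has 3 libraries, and single libraries, the scaling and the block each moved the number of calls. Of 451 values of a member under another setting, 418 kept their direction and their side of the threshold. Of the others, 11 lost and 10 gained a call, and 12 changed sign. Most of the 451 are of members not past the threshold in the main fit, which had no call to lose. All 11 lost calls were of Psap, Gusb and Atp6v0d2, the members past it, and most were of Psap. The replicate block left 2 members past the threshold and took away the call of Psap (limma adjusted p = 0.0606), and changed no other call of a member. Among the other lysosome lists it took away 2 calls and added 3, giving 11. The rescaling by the median of ratios gave 6 members past the threshold, all higher, a median log2 fold change of 0.39 with and without the block, and ratios of summed FPKM of 1.61 for hydrolases, 1.16 for V0 and accessory subunits and 1.50 for all members. With no filter, 5 genes of the other lysosome lists were past the threshold. A quasi-likelihood count model had been planned only for deposited counts and was not run, since the deposited values are FPKM. Voom on the recovered reads called 3 members. With each library left out in turn, 0 to 8 members were past the threshold, 0 to 7 of them higher and 0 to 1 lower. The number of other lysosome genes was then 0 to 21 and the median 0.14 to 0.27. Differences of shares in percentage points ran from 17.6 to 23.6 for Atp6v0d2, -0.61 to 0.74 for Atp6v0a1, -0.72 to 3.42 for Mitf, 8.79 to 14.2 for Tfe3, -0.072 to 0.741 for Tfeb and -17.0 to -10.9 for Tfec. The sign changed for Atp6v0a1 without knockout library 2 and for Mitf and Tfeb without control library 1. Ratios of sums ran from 1.38 to 1.52 for hydrolases, 1.34 to 1.51 for membrane proteins, 0.646 to 0.775 for the TFEB family, 1.02 to 1.09 for V0, 1.04 to 1.21 for V1 and 1.30 to 1.43 for all members. Some log2 fold changes changed sign. After rescaling, with or without the block, they were 0.026 for Glb1, 0.074 for Lipa and 0.018 for Atp6v0b. With each library left out, Glb1 ran from -0.35 to 0.14, Atp6v1a from -0.074 to 0.18, Atp6v1e1 from -0.072 to 0.071 and Atp6v1g1 from -0.025 to 0.25, with the changed sign without control library 1, Atp6ap2 from -0.39 to 0.0016, changed without control library 2, and Lamp2 from -0.059 to 0.27, changed without control library 3. The cause of these changes was not tested. Tfeb had the fewest reads of the members, 112 to 483 a library, and whether depth limited any member was not tested.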

Other observations

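The deposited table also assigns genes to KEGG pathways, and 4 terms that hold some of the 35 genes were counted after the values were seen. Over all genes tested, the limma comparison called 2.57% higher and 4.74% lower, and 27.6% had an unadjusted p below 0.05. The term Lysosome, which includes the cathepsins and 24 of the 35 genes, had 114 genes tested, of which 13 were higher (11.4%) and 0 lower, and 47 had an unadjusted p below 0.05 (41.2%). The block gave 12 higher and 1 lower, and after rescaling 22 were higher and 0 lower, where 3.8% of all genes were higher. Its median log2 fold change was 0.23, against -0.11 over all genes, and 0.35 after rescaling, against 0.02.

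The term Phagosome, with 16 of the 35 genes, had 8 of 115 tested genes higher and 9 lower, and 8 and 12 with the block, with a median of -0.05 and 51 genes at an unadjusted p below 0.05 (44.3%), a larger share than in the term Lysosome. The term for autophagy, with 2 of them, had 3 of 120 higher and 5 lower, and 2 and 8 with the block, with a median of -0.13 and 33 genes at an unadjusted p below 0.05 (27.5%). Oxidative phosphorylation, which holds 14 of them because the pump subunits are listed there, had 1 of 116 higher and 0 lower, with a median of -0.01 and 7 genes at an unadjusted p below 0.05 (6.03%). These 3 medians were above 0 after rescaling, which also raised the median of all genes. The calls in these terms are not independent of those of the members they contain.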
